A study of Mus musculus with 8 samples.

Results

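The Id genes and the E protein genes they act upon were followed across 8 one-colour microarrays of mouse marrow stem and progenitor cells. The 7 members are Id1, Id2, Id3, Id4, Tcf3, Tcf4 and Tcf12, out of 20660 genes that could be named on the array. Probes were matched to the genes through RefSeq transcripts, and for a gene with several probes the one kept was selected on its mean level over the 8 arrays, the highest. The family was chosen with levels from these arrays already in view, so its levels are given as a description and carry no p-value.

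LSK cells lack markers of mature blood lineages, carry Kit and Sca-1 on their surface, and include the blood stem cells. They were sorted from the marrow of irradiated mice that had been grafted with transduced CD45.2 stem cells beside wild-type CD45.1 marrow. Each of the 8 groups had 1 array. All CD45.2 donors were C57BL/6 and carried the inducible Cre-ERT. Double_MDS_ML and Double_MDS were cells of single moribund mice with RUNX1S291fs and deleted Ezh2, one with myelodysplastic syndrome (MDS) and myeloid leukemia and the other with MDS, and the sources used here give no time of sampling for them. Double_mutant cells had the same genotype at month 4, RUNX1_mutant cells carried RUNX1S291fs with wild-type Ezh2, and Ezh2_deleted cells had lost Ezh2 and received the empty retrovirus. CD45.1_in_RUNX1_mutant and CD45.1_in_double_mutant were untransduced wild-type competitors sorted from RUNX1S291fs recipients and from recipients of cells with both lesions, and whether these were the very mice that gave the RUNX1_mutant and Double_mutant cells is not stated in the sources used here. WT cells had wild-type Ezh2 and the empty retrovirus. The month 4 CD45.2 arrays held pooled cells of 2 to 4 mice. RUNX1S291fs was expressed from a retrovirus rather than from its own locus, and each moribund array is 1 mouse. Ages of the animals are not given here.

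E proteins are basic helix-loop-helix transcription factors that bind E-box DNA as dimers and drive lymphoid gene programmes. Id proteins have the helix-loop-helix but no DNA-binding basic region, so an Id and an E protein pair into a dimer that does not bind DNA. Tcf3 encodes E12 and E47, Tcf12 encodes HEB, and Tcf4 encodes E2-2, the E protein required for plasmacytoid dendritic cells. Id gene transcription is a known early response to BMP signalling, and Id2 is needed for innate lymphoid and several dendritic cell types.

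The proximal promoters of Id3 and Id2 are shown because Id3 had the widest spread of the members and Id2 was highest on 2 of the 3 arrays that carry both lesions. They are from RefSeq, build GRCm38.p6, and run from 250 bases before the start of the gene to 50 bases after it. The capitals mark matches to 11 motifs searched on both strands.
Id3, chr4:136143572-136143871, + strand: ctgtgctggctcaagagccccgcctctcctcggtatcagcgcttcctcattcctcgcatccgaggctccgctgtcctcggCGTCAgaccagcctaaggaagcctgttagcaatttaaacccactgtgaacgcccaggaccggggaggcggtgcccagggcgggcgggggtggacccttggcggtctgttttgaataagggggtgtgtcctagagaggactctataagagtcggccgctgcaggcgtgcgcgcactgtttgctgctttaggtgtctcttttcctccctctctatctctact
Id2, chr12:25096043-25096342, - strand: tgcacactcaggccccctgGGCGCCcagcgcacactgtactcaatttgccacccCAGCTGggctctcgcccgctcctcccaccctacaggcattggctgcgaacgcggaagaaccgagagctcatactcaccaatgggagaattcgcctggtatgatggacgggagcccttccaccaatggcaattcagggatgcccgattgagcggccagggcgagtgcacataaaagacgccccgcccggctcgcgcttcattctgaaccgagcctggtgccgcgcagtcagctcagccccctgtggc
The motifs were the general E-box CANNTG and 2 of its forms, the first being CAGCTG, which E protein homodimers are known to bind, and the second being CAGGTG. The cyclic AMP response element was searched whole, as TGACGTCA, and in its shorter form, as TGACG. The SMAD motifs were the palindrome GTCTAGAC and the box of letters GGCGCC. The EGR motif was searched whole, as GCGTGGGCG, and by its core, as GTGGGCG. The TATA-type box searched was TATAAA, and the RUNX motif searched was TGTGGT. The 2 E-box forms are also counted as CANNTG, and both shorter forms lie inside the whole motifs. The Id3 window held 1 match, the shorter element TGACG read on the opposite strand as CGTCA, at position -170 from the start. It held 0 E-boxes. Of 32851 promoters, 72.3% held CANNTG, 20.8% held TGACG, 20.2% held CAGGTG and 16.8% held TGTGGT. The Id2 window held 1 E-box, CAGCTG at position -196, a form found in 16.3% of promoters. It also held GGCGCC at position -231, which 11.9% of promoters held. Neither window held TATAAA (13.6% of promoters), GTGGGCG (7.97%), TGACGTCA (1.79%), GCGTGGGCG (0.61%) or GTCTAGAC (0.21%). Id3 had 19 CpG sites in its window and Id2 had 21, against a median of 7 over all promoters. A match is a description of letters and not a bound site. The promoter table also gave windows of Id4, Tcf3 and Tcf12, and Id1 was not in it.

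A level here is a log2 processed fluorescence signal from which the 75th percentile of its array was subtracted, so the value 0 marks that percentile. Between 43.9% and 55.3% of probes were well above background, and 0 were saturated. The number of arrays limits the precision, and since each group has 1 array, no difference between 2 arrays has a test. The 3 wild-type arrays, WT and both CD45.1 arrays, served as a measure of spread between arrays with no lesion, although they differ in retrovirus, recipient and slide. Gaps between arrays next to each other in level are set beside the SD of these single arrays. A difference of 2 arrays spreads wider than that SD, so a gap that passes it is a description and not a test. Double_MDS, Double_mutant and WT shared slide 1. Slide 2 held RUNX1_mutant, Ezh2_deleted and the 2 competitor arrays, and Double_MDS_ML was alone on slide 3. Ezh2 itself was at 3.51 on the Ezh2_deleted array, against 3.46 on the WT array. Whether its probe lies in the deleted exons is not known here, so that value does not check the deletion. Kit was at 4.06 to 5.11 on all arrays. Ly6a, the Sca-1 gene used in the sort, was at 1.18 and 0.53 on Double_MDS_ML and Double_MDS and at 3.17 to 4.14 on the other 6 arrays. Xist was not well above background on Ezh2_deleted and Double_MDS_ML, and the Y-linked Ddx3y was well above background on those 2 arrays alone. This is the pattern of male cells, and the other 6 arrays had that of female cells. Sex thus differs along with lesion between Ezh2_deleted and WT, and along with stage between Double_MDS_ML and Double_mutant.

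Id3 moved furthest of the members. It was at -3.47 on Double_MDS_ML, 1.90 on Double_MDS, -2.14 on Double_mutant, 3.63 on RUNX1_mutant and 3.81 on Ezh2_deleted. The wild-type arrays stood at -0.44 (CD45.1_in_RUNX1_mutant), 2.20 (CD45.1_in_double_mutant) and -1.62 (WT). Both single-lesion arrays lay above every wild-type array, and Double_mutant and Double_MDS_ML lay below all 3. The range over the 8 arrays was 7.28 on the log2 scale, and 98.9% of 13555 genes had a smaller one. The 3 wild-type arrays alone spanned 3.82, wider than for 99.2% of genes.

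Against WT, Id3 was higher by 5.26 on RUNX1_mutant and by 5.43 on Ezh2_deleted, which is 38.2-fold and 43.2-fold. On Double_mutant, which carries both lesions, it differed from WT by -0.52. Against the competitor array from RUNX1S291fs recipients, which shared its slide, RUNX1_mutant was higher by 4.08. Double_mutant was lower than the competitors from its kind of recipient by 4.34 on the log2 scale, on another slide (a difference of -4.34). When levels are ordered from low to high, 1 of the 7 gaps between neighbours exceeded the wild-type SD of 1.96, that of 2.34 between Double_MDS and CD45.1_in_RUNX1_mutant. The neighbours Ezh2_deleted and RUNX1_mutant did not differ beyond that spread, nor did Double_mutant and WT. On slide 2 Id3 ran from -0.44 to 3.81 and on slide 1 from -2.14 to 1.90. Both single-lesion arrays were on slide 2, and Double_mutant and WT on slide 1. Lesion and slide thus cannot be told apart among the month 4 CD45.2 arrays. Within slide 1, Double_MDS was 4.04 above Double_mutant, which differed from WT by -0.52.

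Id1 was also widely spread. It was at 1.50 on Double_MDS_ML, 4.55 on Double_MDS, 2.22 on Double_mutant, 4.12 on RUNX1_mutant and 1.76 on Ezh2_deleted, and at 2.80, 3.49 and 0.19 on CD45.1_in_RUNX1_mutant, CD45.1_in_double_mutant and WT. WT had the lowest value of all 8 arrays, and Double_MDS and RUNX1_mutant were the 2 that passed the highest wild-type array. The differences from WT were 3.93 on RUNX1_mutant, 1.57 on Ezh2_deleted and 2.03 on Double_mutant. The competitor arrays differed from WT by 2.61 and 3.29, the second being 9.81-fold, although all 3 arrays hold wild-type cells. The wild-type SD of 1.74 exceeded all 7 gaps between neighbours in the order of Id1 levels.

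**Figure D1:**
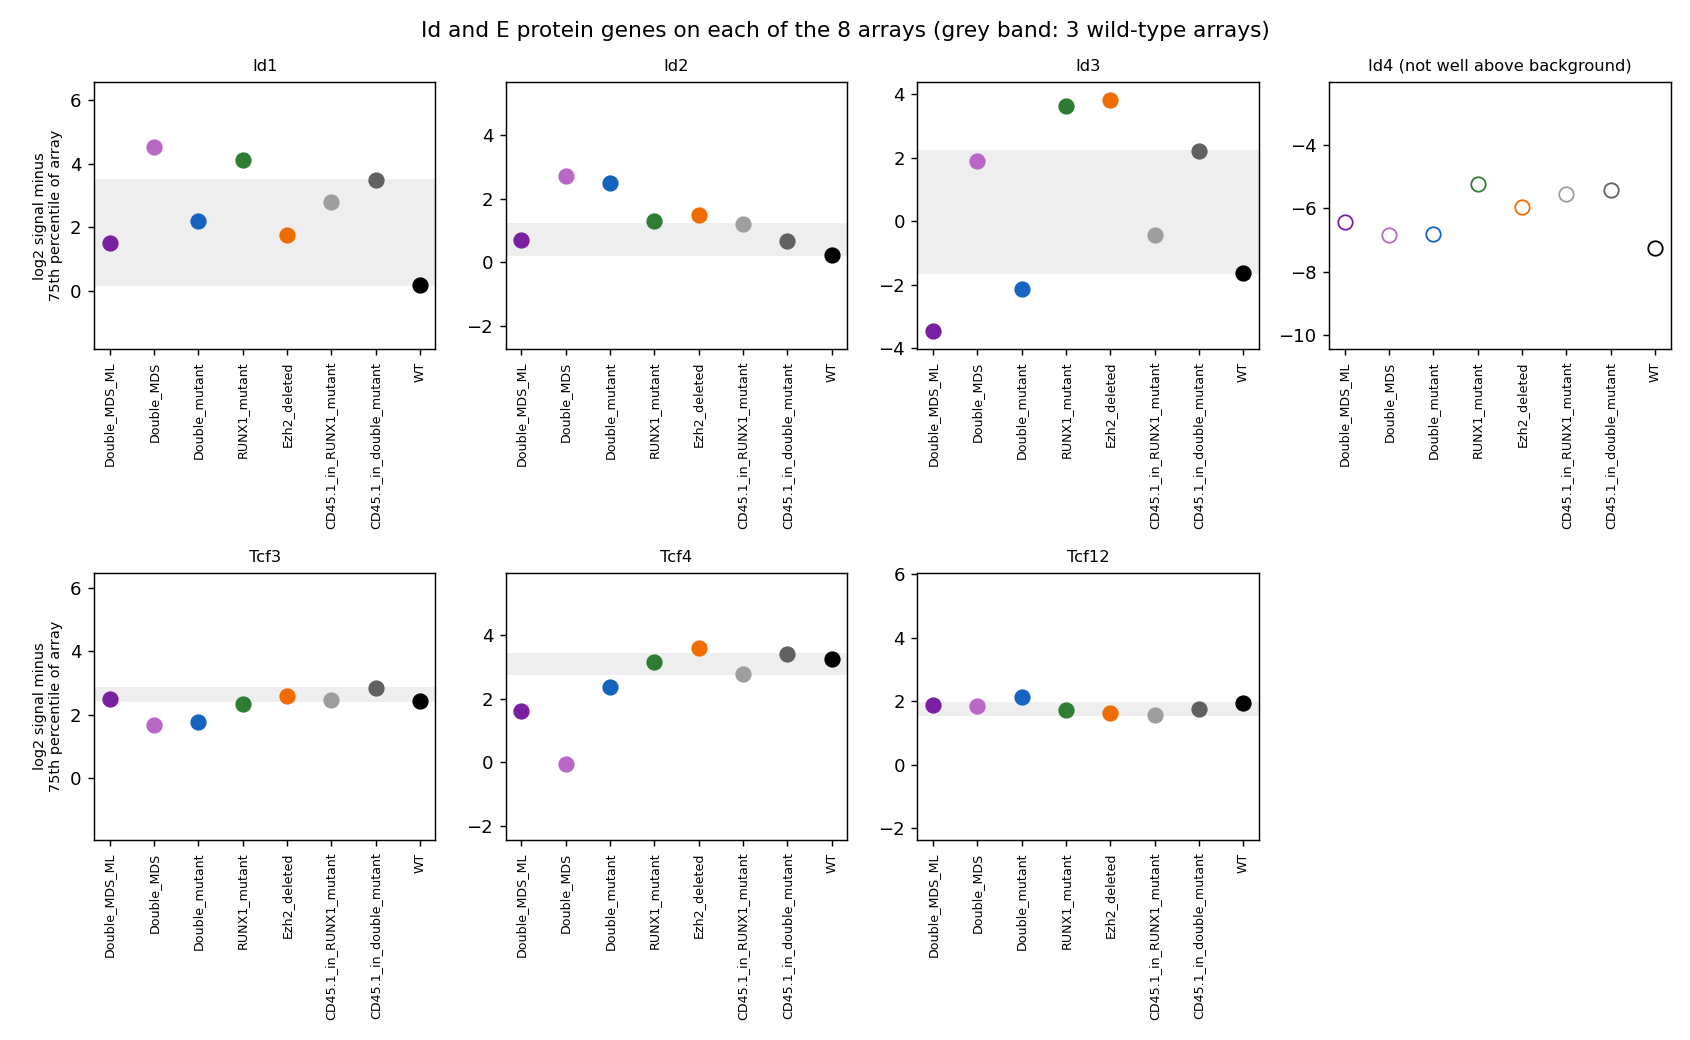
Level of each member on each of the 8 arrays, in log2 units from the 75th percentile, with 1 point per array, a grey band over the range of the 3 wild-type arrays (none for Id4, open points, which was not well above background) and the same length of axis in each panel. Id3 runs from -3.47 to 3.81, Tcf12 stays within 0.57, Tcf4 is lowest on Double_MDS, and the open points of Id4 are not well above background.

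Among the genes whose levels were most like those of Id3 and Id1 were immediate early genes, which cells induce within minutes of a stimulus. The gene most like Id3 among 11303 was Nr4a1, an immediate early nuclear receptor, with r = 0.98 and rho = 0.98 over 8 arrays, and r = 0.98 without the 2 most extreme arrays. Skil, a SMAD corepressor induced by TGF-beta, was next at r = 0.98, followed by Suco, the phosphatase Dusp10 and the phosphodiesterase Pde4b, each at r = 0.97. Nr4a1 was at 6.12 on Double_MDS_ML, 8.55 on Double_MDS, 6.64 on Double_mutant, 9.70 on RUNX1_mutant and 9.22 on Ezh2_deleted, against 6.89, 8.77 and 6.74 on CD45.1_in_RUNX1_mutant, CD45.1_in_double_mutant and WT. For Id1 the most like genes were Uts2r (r = 0.95), the immediate early factor Egr2 (r = 0.94), the linker histone H1f2, Paf1 and Arf4 (r = 0.92 each). These values describe 8 points that share their arrays and slides.

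**Figure D2:**
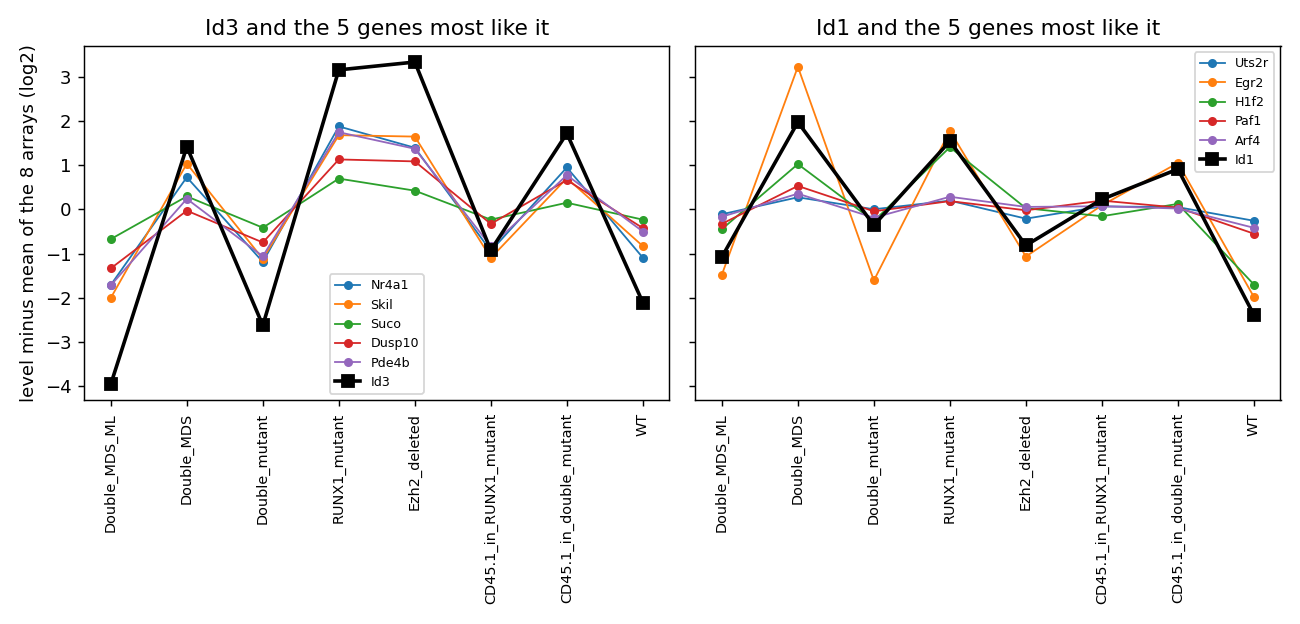
Levels of Id3 (left) and Id1 (right) in black with the 5 genes most like each, every gene as its level minus its own mean over the 8 arrays (log2). Nr4a1 follows Id3 at r = 0.98, and Egr2 follows Id1 at r = 0.94.

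A list of 18 early response genes was followed as a group. Its mean level was 3.64 on Double_MDS_ML, 5.68 on Double_MDS, 3.04 on Double_mutant, 5.85 on RUNX1_mutant and 4.28 on Ezh2_deleted, and 4.28, 5.08 and 3.42 on the 3 wild-type arrays in the order above. The correlation with that mean was r = 0.86 and rho = 0.83 for Id1 and r = 0.79 and rho = 0.67 for Id3. Without the 2 arrays most extreme for each gene it was 0.83 for Id1 and 0.97 for Id3. By rank, the list of BMP and TGF-beta genes was closer to Id3 (rho = 0.83, r = 0.56, and r = 0.14 without those 2 arrays). On RUNX1_mutant 17 of 18 early genes were at least 2-fold higher than on WT, with a median of 2.28, whereas 8.57% of all genes were. Atf3 was 4.16 higher and Fosb 3.38 higher. On Ezh2_deleted 7 of 17 were higher than on WT and 1 was lower, beside 7.82% and 3.85% of all genes. The 2 wild-type arrays CD45.1_in_double_mutant and WT also differed, with 14 of 17 early genes higher on the first (median 1.52), beside 4.58% of all genes. The part of this early response in the Id1 and Id3 levels was not tested.

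Id3 and Id1 did not move alike on Ezh2_deleted, where Id3 was at its highest and Id1 at the third lowest of its levels. On the 8 arrays the correlation between them was r = 0.59 and rho = 0.48. Smad7, an inhibitory SMAD that is induced by TGF-beta and BMP, was at 3.29 on Ezh2_deleted, 2.71 on RUNX1_mutant and 0.25 on Double_mutant, against 1.70 on WT. It was at -0.71 on Double_MDS, where Id3 was above WT, was not well above background on Double_MDS_ML, and was at 0.89 and 2.54 on the competitor arrays. Smad7 was thus above WT on both single-lesion arrays and below it on Double_mutant, the same order as Id3. Of 24 BMP and TGF-beta pathway genes, 3 of 21 measured were at least 2-fold higher on Ezh2_deleted than on WT (Bmpr1a by 2.18, Smad7 by 1.59, Bmp4 by 1.21) and 0 were lower, beside 7.82% and 3.85% of all genes. On RUNX1_mutant 2 were higher and 1 lower than on WT, beside 8.57% and 5.79%, which is near the background. On Double_mutant 0 were higher and 4 of 21 lower than on WT, beside 10.6% and 7.94%.

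Id2 had a narrower wild-type spread. It was at 0.70 on Double_MDS_ML, 2.72 on Double_MDS, 2.50 on Double_mutant, 1.30 on RUNX1_mutant and 1.50 on Ezh2_deleted, and at 1.21, 0.66 and 0.22 on CD45.1_in_RUNX1_mutant, CD45.1_in_double_mutant and WT. All 3 month 4 mutants and Double_MDS lay above the 3 wild-type arrays, RUNX1_mutant by little, and Double_MDS_ML lay among them. The difference from WT was 2.28 on Double_mutant (4.86-fold), 1.28 on Ezh2_deleted and 1.08 on RUNX1_mutant. Against the competitor array from the same kind of recipient, Double_mutant was higher by 1.84, while RUNX1_mutant differed by 0.09. The wild-type SD was 0.49, and 2 of 7 gaps between neighbours passed it, the wider one of 1.00 between Double_mutant and Ezh2_deleted. Double_MDS and Double_mutant, at the top, did not differ beyond it.

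The gene most like Id2 was Spire1 (r = 0.98, rho = 1.00), an actin nucleator, followed by the myeloid chemokine Ccl6 (r = 0.95), Carf, the GTPase Rnd1 and Zfp738. Several lists of mature blood cell markers moved with Id2, those of neutrophils, of erythroid cells and of mast cells and basophils. The mean level of 12 neutrophil genes was -1.82 on Double_MDS_ML, 4.27 on Double_MDS, 5.75 on Double_mutant, 2.43 on RUNX1_mutant and 3.63 on Ezh2_deleted, against 3.62, 0.89 and 0.78 on the 3 wild-type arrays (r = 0.81 with Id2, rho = 0.88, and r = 0.71 without the 2 most extreme arrays). Between 8 and 12 of the 12 genes were well above background on each array. The 11 mast cell and basophil genes measured had means of -0.75, 1.07, 3.18, 2.19 and -0.90 on the 5 lesion arrays in the same order, and 0.19, -0.16 and -1.36 on the wild-type arrays (r = 0.71, and 0.50 without the 2 most extreme arrays). The 11 erythroid genes measured had means of -1.46, -0.29, 0.16, -0.15 and -0.077 on the lesion arrays, and -0.39, -1.19 and -1.15 on the wild-type arrays (r = 0.78, rho = 0.76, and r = 0.88 without the 2 most extreme arrays). In sorted bulk cells, fewer cells of a type and less RNA per cell cannot be told apart. The part of these cell types in the Id2 level was not tested. For genes of innate lymphoid and natural killer cells, cell types that depend on Id2, the mean level had r = -0.29 and rho = -0.12 with Id2. Without the 2 most extreme arrays r was 0.35, so its sign depends on those arrays.

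Id4 was not well above background on any of the 8 arrays, so no difference is given for it.

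Tcf4 varied most of the E protein genes. It was at 1.61 on Double_MDS_ML, -0.07 on Double_MDS, 2.37 on Double_mutant, 3.14 on RUNX1_mutant and 3.58 on Ezh2_deleted, and at 2.77, 3.41 and 3.26 on CD45.1_in_RUNX1_mutant, CD45.1_in_double_mutant and WT. All 3 arrays with both lesions lay below the wild-type arrays, and both single lesions lay near or among them. Double_MDS was lower than Double_mutant by 2.44 on the log2 scale (a difference of -2.44, 5.43-fold), and Double_MDS_ML by 0.76 (a difference of -0.76). Double_mutant differed from WT by -0.89. The wild-type SD was 0.33, and 4 of 7 gaps between neighbours passed it, that of 1.68 between Double_MDS_ML and Double_MDS being the widest. With the mean of both probes the difference between Double_MDS and Double_mutant was -1.81. The other Tcf4 probe was at -2.50 on Double_MDS_ML, -3.52 on Double_MDS, -2.35 on Double_mutant, -2.12 on RUNX1_mutant and -1.21 on Ezh2_deleted, against -1.69, -1.28 and -0.94 on the wild-type arrays. It too was lowest on Double_MDS, and the 2 probes had r = 0.92.

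Tcf4 levels went with those of several lists, among them genes of plasmacytoid dendritic cells, a cell type that depends on Tcf4. The mean of the 12 such genes measured was -0.19 on Double_MDS_ML, -1.18 on Double_MDS, 0.79 on Double_mutant, 0.86 on RUNX1_mutant and 2.02 on Ezh2_deleted, and 0.95, 1.70 and 0.97 on the 3 wild-type arrays. The correlation was r = 0.96 and rho = 0.98 over 8 arrays, and r = 0.77 without both moribund arrays. The BMP and TGF-beta list went with Tcf4 about as closely (r = 0.91, and 0.87 without those arrays), as did stem and progenitor genes (r = 0.87, and 0.60) and conventional dendritic cell genes (r = 0.85, and 0.69). Megakaryocyte genes went the other way (r = -0.78, and -0.094 without both moribund arrays). Of 12 megakaryocyte genes, 11 were at least 2-fold higher and 1 lower on Double_MDS than on Double_mutant, beside 10.6% and 20.3% of all genes, and on Double_MDS_ML 10 were higher and 0 lower, beside 9.86% and 15.2%. The part of these cell types in the Tcf4 level was not tested. Of the 12 plasmacytoid dendritic cell genes, 9 were at least 2-fold lower on Double_MDS than on Double_mutant and 0 were higher, beside 20.3% and 10.6% of all genes. Irf8 had a difference of -3.62, and Spib, dim on Double_MDS, had a bound of -3.16. On Double_MDS_ML 6 of these 12 genes were lower and 2 higher than on Double_mutant, beside 15.2% and 9.86% of all genes. The list's median was -2.10 on Double_MDS and -0.94 on Double_MDS_ML. The lymphoid homing receptor gene Ccr9 is in this list and in the list of E protein targets. The defining marker Siglech went the other way, at 9.26 on Double_MDS and 8.40 on Double_mutant. The genes most like Tcf4 were Gpr132, Nrm, Niban2, Cdc42se2 and Armcx6 (r = 0.99 each). Flt3, the cytokine receptor of early lymphoid and dendritic progenitors, was at -1.28 on Double_MDS_ML and -2.34 on Double_MDS, against 3.23 on Double_mutant and 5.70 on WT.

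**Figure D3:**
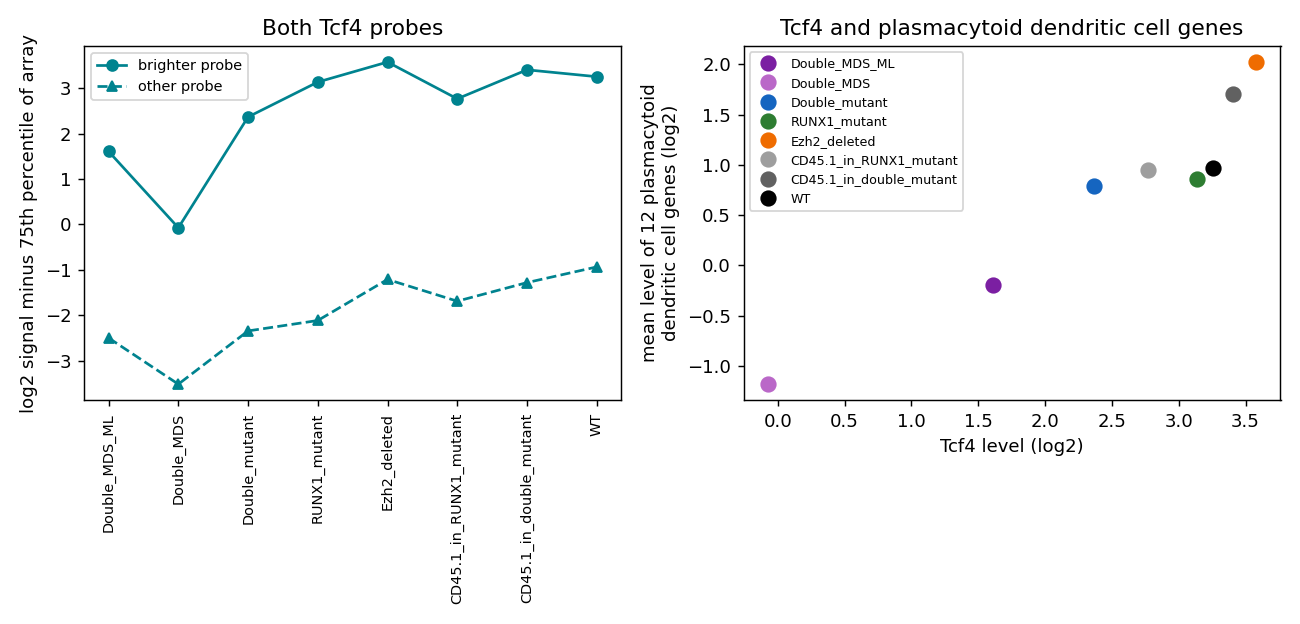
Left, levels of both Tcf4 probes on each array (log2 signal minus the 75th percentile), joined by lines. Right, the Tcf4 level of each array against the mean level of 12 plasmacytoid dendritic cell genes, 1 point per array, with Double_MDS at -0.07 and -1.18 in the lower left corner and r = 0.96.

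Tcf3 moved little. It was at 2.49 on Double_MDS_ML, 1.67 on Double_MDS, 1.75 on Double_mutant, 2.34 on RUNX1_mutant and 2.58 on Ezh2_deleted, and at 2.45, 2.85 and 2.44 on the 3 wild-type arrays. Double_MDS and Double_mutant were the 2 lowest. Double_mutant differed from WT by -0.69 and from CD45.1_in_double_mutant by -1.10. Double_MDS_ML was 0.74 above Double_mutant, or 1.17 with the mean of both probes. The other Tcf3 probe followed it (r = 0.96) and was lowest on the same arrays, at -1.78 on Double_MDS and -2.05 on Double_mutant, against -0.85 on WT. The arrays on which Id2 was highest were those on which Tcf3 was lowest, with r = -0.86 and rho = -0.60 between both genes. Those 2 arrays, Double_MDS and Double_mutant, were the most extreme for both genes, and r without them was not computed. On the other arrays Tcf3 stayed between 2.34 and 2.85 while Id2 ran from 0.22 to 1.50.

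Tcf12 was the steadiest member. It was at 1.88, 1.83, 2.12, 1.71 and 1.63 on Double_MDS_ML, Double_MDS, Double_mutant, RUNX1_mutant and Ezh2_deleted, and at 1.55, 1.76 and 1.93 on the wild-type arrays. Its range of 0.57 was wider than that of 3.53% of genes. The second Tcf12 probe ran from 0.00 on WT to 0.73 on RUNX1_mutant and did not follow the first (r = 0.06), so the order of Tcf12 levels depends on the probe. Its difference between RUNX1_mutant and WT was -0.22 with the first probe and 0.25 with the mean of both. Over the members, the 8-array range was 7.28 for Id3, 4.36 for Id1, 3.65 for Tcf4, 2.50 for Id2, 1.19 for Tcf3 and 0.57 for Tcf12, beside a median of 1.39 over all genes.

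Across pairs of arrays, 6 members could be compared. On RUNX1_mutant 3 of 6, all Id genes, were at least 2-fold higher than on WT and 0 were lower, where 14.4% of all genes were apart (8.57% higher, 5.79% lower). On Ezh2_deleted the same 3 were higher than on WT, beside 11.7% of genes apart. On Double_mutant Id1 and Id2 were higher than on WT, beside 18.5%. These 3 comparisons share the WT array, on which Id1 and Id2 had their lowest levels. Set against RUNX1_mutant, Double_mutant had Id2 higher and Id1 and Id3 lower, beside 16.6% of genes apart (8.08% higher, 8.49% lower). Set against Ezh2_deleted, it had Id3 and Tcf4 lower, beside 21.9% of genes apart (10.9% higher, 11.0% lower), and the Id2 difference of 1.00 fell just short of 2-fold. The competitor arrays each had 2 members higher than on WT, Id1 and Id3. For CD45.1_in_RUNX1_mutant 18.0% of genes were apart from WT (11.3% higher, 6.67% lower), and for CD45.1_in_double_mutant 6.88% were (4.58% higher, 2.30% lower).

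**Figure D4:**
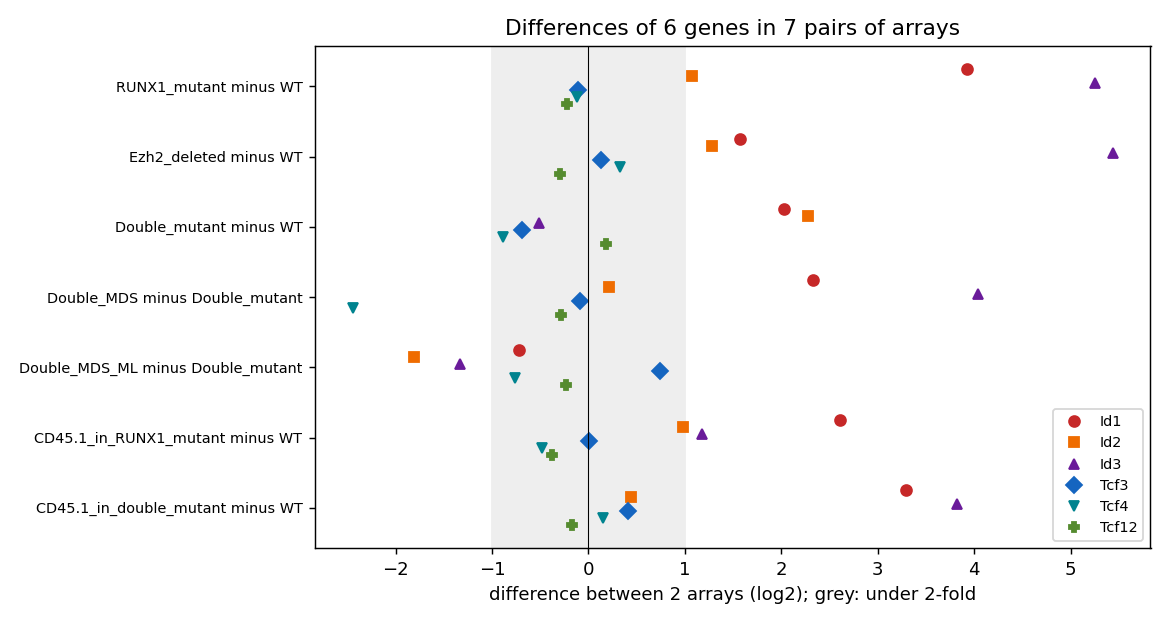
Difference in level of the 6 measured members in 7 pairs of arrays (log2, first array minus second), with a grey band for differences under 2-fold. Id3 lies at 5.26 and 5.43 for the single lesions and at -0.52 for Double_mutant, while Tcf12 stays inside the band in every pair drawn.

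On Double_MDS 2 members were higher (Id1 by 2.33 and Id3 by 4.04) and Tcf4 was lower than on Double_mutant, beside 30.9% of genes. On Double_MDS_ML Id2 and Id3 were lower than on Double_mutant, with differences of -1.81 and -1.33, beside 25.1%. With normexp background that of Id3 was -0.72, under 2-fold. Set against the competitors from the same kind of recipient, RUNX1_mutant had Id1 and Id3 higher, beside 21.1% of genes apart (8.73% higher, 12.4% lower). Double_mutant had Id2 higher and Id1, Id3, Tcf3 and Tcf4 lower than its competitors, so that 5 of 6 members were apart, beside 19.2% of genes (9.78% higher, 9.41% lower). Between the competitors themselves 1 member was apart, Id3, which was lower on CD45.1_in_RUNX1_mutant (a difference of -2.64), beside 16.1% of genes apart (9.36% higher, 6.78% lower).

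An additive limma model over the 8 arrays, with terms for RUNX1S291fs, Ezh2 deletion and moribund stage, gave effects with standard errors (SE). Each SE joins the gene's own spread, on 4 residual degrees of freedom, with a spread estimated over all genes. That shared spread had the weight of 3.12 further degrees of freedom. No p-value is attached to the members. The RUNX1S291fs effect was 1.36 (SE 1.16) for Id1, 0.76 (SE 0.59) for Id2 and -0.23 (SE 2.37) for Id3. The Ezh2 deletion effect was -1.00 (SE 1.16) for Id1, 0.97 (SE 0.59) for Id2 and -0.05 (SE 2.37) for Id3. The values for Id3 depended on single arrays. Its RUNX1S291fs effect was -5.95 without RUNX1_mutant and 3.59 without Ezh2_deleted or without Double_mutant. Its Ezh2 deletion effect was -5.77 without Ezh2_deleted and 3.77 without RUNX1_mutant or without Double_mutant. The values -5.95 and -5.77 are the plain differences of Double_mutant from Ezh2_deleted and from RUNX1_mutant. Each lesion effect of the full model averages such a difference with one of opposite sign on arrays without the other lesion. For the E protein genes, the RUNX1S291fs effect was -0.48 (SE 0.35) for Tcf3, -0.49 (SE 0.54) for Tcf4 and 0.17 (SE 0.28) for Tcf12. The Ezh2 deletion effect was -0.24 (SE 0.35), -0.05 (SE 0.54) and 0.09 (SE 0.28) for those genes. The stage effect was -1.96 (SE 0.67) for Tcf4, 0.15 (SE 0.43) for Tcf3 and -0.10 (SE 0.35) for Tcf12. For Id1, Id2 and Id3 it was 0.36 (SE 1.42), -0.68 (SE 0.73) and -1.51 (SE 2.90). With slide as a block, these were 2.74 (SE 0.80), 0.44 (SE 0.60) and 3.00 (SE 1.93), so that Id2 and Id3 changed sign. That block leaves Double_MDS as the only moribund array that bears on stage. It gave RUNX1S291fs effects of 1.78 (SE 0.54) for Id1, 0.81 (SE 0.41) for Id2 and 0.69 (SE 1.30) for Id3. The Ezh2 deletion effects with it were -0.57 (SE 0.54), 1.02 (SE 0.41) and 0.86 (SE 1.30), so that both lesion effects of Id3 changed sign. Leaving out 1 array moved the stage effect of Id3 between -8.19 (without Double_mutant) and 1.35 (without Ezh2_deleted or RUNX1_mutant). That of Id1 ran from -1.17 to 1.88 and that of Id2 from -1.69 to 0.33, in each case without Double_MDS and without Double_MDS_ML. The stage effect of Tcf4 was -2.68 (SE 0.63) with slide as a block and ran from -2.80 (without Double_mutant) to -1.12 (without Double_MDS). Among 13555 genes, limma called 2 for RUNX1S291fs (0.0148%), 0 for Ezh2 deletion (0%) and 250 for stage (1.84%) at a Benjamini-Hochberg adjusted p of 0.05. At an unadjusted p of 0.05 it counted 808, 321 and 1857. With no effect on any gene, a share of about 0.05 of the 13555 would still be counted. Such unadjusted counts thus do not by themselves show an effect.

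Genes that E proteins activate or act upon, mainly of the B and T lineages, were listed apart from the members. None of the 19 tested passed for any term. On RUNX1_mutant 11 of 18 measured were at least 2-fold lower than on WT and 2 were higher, beside 5.79% and 8.57% of all genes. Il7r, the interleukin-7 receptor, was lower (a difference of -3.59), as was Blnk, a B cell linker (-2.99), while the cell cycle inhibitor Cdkn1a was 3.61 higher. On Ezh2_deleted 14 of 21 were higher than on WT and 2 were lower, beside 7.82% and 3.85%, with the pre-B receptor gene Igll1 6.73 higher and Pou2af1 6.50 higher. Id3 was thus far above WT on both arrays, whereas these E protein targets lay mostly below WT on RUNX1_mutant and above it on Ezh2_deleted. On Double_mutant 9 of 18 were lower than on WT and 3 higher, beside 7.94% and 10.6%. The list's median difference was -1.67 on RUNX1_mutant, 2.32 on Ezh2_deleted and -1.05 on Double_mutant, while the median over all genes lay between -0.23 and 0.16 in every pair of arrays.

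The mean level of the 22 targets was -2.02 on Double_MDS_ML, -2.71 on Double_MDS, -1.67 on Double_mutant, -2.04 on RUNX1_mutant and 1.73 on Ezh2_deleted, and -1.18, 0.50 and -0.95 on CD45.1_in_RUNX1_mutant, CD45.1_in_double_mutant and WT. It had r = 0.72 with Tcf4, 0.66 with Tcf3, -0.39 with Tcf12, 0.41 with Id3, -0.31 with Id1 and -0.33 with Id2, so that the E protein genes did not share a direction. Without the 2 arrays most extreme for each gene the values were 0.72, 0.65, -0.57, -0.085, -0.16 and 0.26. Between 12 (Double_MDS) and 21 (Ezh2_deleted) of the 22 targets were well above background on an array. The means include the dim ones, so background signal bears on them and on these correlations. Of the wild-type arrays, CD45.1_in_double_mutant had 11 of 20 targets at least 2-fold higher than WT and 0 lower, beside 4.58% and 2.30% of genes. Gfi1, a repressor needed in lymphoid and granulocyte progenitors, was at -1.88 on Double_MDS_ML and -0.86 on Double_MDS, against 5.72 on Double_mutant. Its limma stage effect was -5.60 (SE 1.21, adjusted p = 0.08), which missed the threshold.

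Partners that dimerise or form complexes with E proteins in blood progenitors formed another list. On RUNX1_mutant 2 of 11 were at least 2-fold higher than on WT and 0 lower, beside 8.57% and 5.79% of all genes. On Ezh2_deleted 1 of 11 was higher and 3 were lower (Gata1, Cbfa2t3 and Tal1), beside 7.82% and 3.85%. On Double_mutant 3 of 12 were higher and 1 lower, beside 10.6% and 7.94%. Of 15 listed, 11 were tested in the model and 0 passed for any term. On Double_MDS 5 of 12 were at least 2-fold higher and 4 lower than on Double_mutant, beside 10.6% and 20.3% of all genes, and on Double_MDS_ML 4 were higher and 5 lower, beside 9.86% and 15.2%. The list's median difference was 0.38 on Double_MDS and 0.33 on Double_MDS_ML. Tal1, the stem cell and erythroid partner of E proteins, was at 5.84 on Double_MDS_ML and 5.32 on Double_MDS, against 3.91 on Double_mutant and 4.35 on WT. The corepressor Cbfa2t3 was at 5.74 and 5.61 on those moribund arrays, against 3.44 on Double_mutant. Lmo2, which bridges Tal1 complexes, was at 5.03 and 4.46, against 6.30 on Double_mutant. Hes1, a Notch-induced repressor, was at -1.07 on Double_MDS_ML and 2.48 on Double_MDS, against -1.17 on Double_mutant. Of the 21 tested BMP and TGF-beta genes, 1 passed for stage. The type I receptor gene Acvr1 fell by 3.51 on the log2 scale (SE 0.47, limma adjusted p = 0.02), at -1.96 and -3.12 on Double_MDS_ML and Double_MDS against 0.84 on Double_mutant. Without the Double_mutant array the model called 0 genes for stage.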

How the data were processed

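RNA of 8 sorted cell groups was hybridised to Agilent one-colour mouse arrays, 1 per group. Per the file headers, the authors' scanner files come from Agilent Feature Extraction 10.7.1.1, and the deposited processed signal is a fluorescence intensity corrected for background within each array. Each array had 62976 spots and 55681 non-control probes. The deposited series table holds that signal scaled by a single factor in each array (within 0.01 log2 for at least 99.7% of probes). Repeat spots were averaged, spots marked non-uniform were left out, and log2 signal was centred on the 75th percentile of each array. Transcript accessions named 27235 probes through RefSeq GRCm38.p6, the files' own build being mm9, so that gene coordinates are not given. A gene took its probe with the highest mean.

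A pair of arrays was compared over genes that the scanner software marked as well above background in either array, with dim values raised to the lowest level well above background on that array. A difference with a dim side is a bound, and counts of genes at least 2-fold apart include such bounds. limma 3.58.1 (R 4.3.3) fitted an additive model over 8 arrays to 13555 genes, those marked on 3 or more arrays, and it was tested on simulated data, as were the pair and likeness steps. List means include dim values. Likeness took the 5 genes with the highest Pearson correlation over the 8 arrays. List genes named are the largest of each pair, those passing the model, defining markers, or genes followed across arrays that were chosen after their values were seen (Smad7, Tal1, Lmo2, Cbfa2t3, Xist, Ddx3y). The members, lists and motifs were chosen with earlier results of these data known, and the comparison of Double_mutant with Ezh2_deleted was added after the levels were seen. Alternatives changed scaling, background, probes, filters, slide, recipient, stage term and arrays.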

Additional observations from a re-analysis of the deposited data

Results flagged for a closer look

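Some member differences ran in opposite directions under the same contrast. None was tested, since each rests on 4 or fewer single arrays. Id3 was higher by 5.26 on RUNX1_mutant than on WT, whereas it differed by -5.95 on Double_mutant from Ezh2_deleted. The same gene was higher by 5.43 on Ezh2_deleted than on WT, whereas it differed by -5.77 on Double_mutant from RUNX1_mutant. Id1 was higher by 1.57 on Ezh2_deleted than on WT and differed by -1.90 on Double_mutant from RUNX1_mutant. RUNX1_mutant and Ezh2_deleted were on slide 2, and WT and Double_mutant on slide 1. Each of these differences lay between those slides, so lesion and slide cannot be told apart in them. Ezh2_deleted also differed from WT, RUNX1_mutant and Double_mutant in its Xist and Ddx3y signals. For Id1, WT was the lowest of all 8 arrays. Ezh2_deleted, at 1.76, lay above WT but below both competitor arrays on its own slide (2.80 and 3.49). The opposite direction for Id1 thus depends on WT being the array compared. The 2 moribund arrays also parted, with Id3 at 4.04 above Double_mutant on Double_MDS and at -1.33 from it on Double_MDS_ML. With normexp background the Double_MDS_ML difference was -0.72, which is under 2-fold. Double_MDS shared slide 1 with Double_mutant, and Double_MDS_ML was on slide 3 and had the Xist and Ddx3y pattern of male cells. Opposite differences of at least 2-fold on both sides were found in 361 of 13467 genes (2.68%) for RUNX1S291fs without and with Ezh2 deletion. They were found in 415 of 13275 (3.13%) for Ezh2 deletion without and with RUNX1S291fs, and in 101 of 13601 (0.74%) for both moribund arrays. The shares for RUNX1S291fs and Ezh2 deletion come from the same arrays, so slide bears on them too.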

How the results depend on the processing

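Of 360 member differences recomputed under 5 alternatives, 355 moved by less than the gene's residual SD in the additive model (0.32 to 2.65). That SD also draws on the spread shared by all genes. Of the same differences, 344 moved by less than the gene's wild-type SD (0.19 to 1.96) and 357 by less than its wild-type range. No difference of at least 2-fold changed sign (0 cases), but with normexp background some fell below 2-fold. Among them were Id3 for Double_MDS_ML minus Double_mutant (-0.72) and for CD45.1_in_RUNX1_mutant minus WT (0.99), and Id2 for RUNX1_mutant minus WT (0.95). Of the 16 moves past the wild-type SD, 15 came with the mean of all probes. With the mean of all probes, the Tcf12 difference was 0.25 for RUNX1_mutant minus WT, 0.075 for Ezh2_deleted minus WT and 0.023 for Double_mutant minus RUNX1_mutant, Tcf4 was at -1.81 for Double_MDS minus Double_mutant, and Tcf3 was at 1.17 for Double_MDS_ML minus Double_mutant. With normexp background, genes at least 2-fold apart numbered 1168 for RUNX1_mutant, 871 for Ezh2_deleted and 1557 for Double_mutant against WT, and 1377 and 1891 for Double_mutant against RUNX1_mutant and Ezh2_deleted. They numbered 1614 and 1548 for RUNX1_mutant and Double_mutant against the competitors from the same kind of recipient. Counts were 1562 and 392 for CD45.1_in_RUNX1_mutant and CD45.1_in_double_mutant against WT, and 1210 between those. The RUNX1S291fs calls were 5 with quantile normalization, 1 with normexp, 1 with the mean of probes, 9 without the stage term, and 0 with genes above background on all 8 arrays, with no filter or with slide as a block. Stage calls were 151 with genes above background on all 8 arrays, 149 with no filter and 70 with slide as a block. Leaving out 1 array gave 0 to 10 RUNX1S291fs calls and 0 to 381 stage calls, 0 without Double_mutant. The cause was not tested. The labels tie each competitor array to a lesion array by kind of recipient, and a block for these 2 pairs was added after the data were seen. As a random block (replicate block, estimated correlation -0.77, so that paired arrays did not deviate together) it gave 0 RUNX1S291fs, 0 Ezh2 deletion and 353 stage calls, with 694 and 922 genes at an unadjusted p of 0.05 for the first 2 terms in limma. Within the 2 pairs alone, with 1 residual degree of freedom, lesion minus competitor arrays gave 0 calls and 568 genes at an unadjusted p of 0.05. There the effect was 0.97 (SE 0.63) for Id2, 0.023 (SE 0.72) for Id1 and -0.13 (SE 1.67) for Id3. These SE too draw on a spread shared by all genes. The 2 pair differences were 4.08 and -4.34 for Id3, 1.31 and -1.27 for Id1, and 0.09 and 1.84 for Id2. The SE of Id3 and Id1 thus do not show how far their pairs lay apart. Groups of 1 array limit every difference here, and Id1 and Id3 differed between wild-type arrays as much as between many lesions.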
